A study of Mus musculus with 31 samples.

Results

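The mitochondrial genome of the mouse and its copy in the nucleus were followed in messenger RNA libraries of RM9 and MC38 tumors before and after radiation therapy (RT). The members were all 37 genes listed on the mitochondrial chromosome (MT), namely 13 protein-coding genes, 2 ribosomal RNA (rRNA) genes and 22 transfer RNA (tRNA) genes, together with 7 genes on chromosome 1 that are nuclear copies of mitochondrial sequence. These 44 genes were chosen by position alone from the 46072 genes in the tables, and all 44 were listed in each of the 31 libraries.

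RM9, a prostate adenocarcinoma line, and MC38, a colon adenocarcinoma line, were each grown under the skin of the right hind leg of male C57BL/6J mice. A single 15 Gy dose was given to the tumor alone, and tumors were taken 3 h, 12 h or 24 h later. There were 4 mice per group and 1 library per mouse for RM9 Control, RT 3 h and RT 12 h and for MC38 Control, RT 3 h, RT 12 h and RT 24 h, and 3 mice for RM9 RT 24 h. Controls received no treatment and carried the 3 h label, so time since the dose and time of collection cannot be told apart at 12 h and 24 h, and the 3 RT groups of a model share their controls. Each model is 1 cell line transplanted away from its organ of origin. The keratin genes Krt8, Krt18 and Krt19, which mark epithelium, had medians of 767, 238 and 103 TPM in RM9 and of 0 TPM in MC38. The prostate gene Pbsn was at 0 in all 31 libraries, and the colon genes Cdx1 and Cdx2 were at 0 in all 16 MC38 libraries.

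Mitochondrial DNA encodes subunits of the respiratory chain and of ATP synthase, the rRNAs of the mitochondrial ribosome and the tRNAs it uses. Both strands are transcribed into long precursors, and the tRNAs that lie between the other genes are cut out so that mRNAs and rRNAs are released and mostly receive short poly(A) tails. The pairs mt-Atp8 with mt-Atp6 and mt-Nd4l with mt-Nd4 overlap and are each kept on a shared mRNA. Fragments of mitochondrial DNA also sit in the nuclear genome, where reads of the same sequence can be assigned to them.

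The sequences below show the places where the listed genes share bases, since these places set several of the values that follow. They were read from the GENCODE M21 transcripts, whose positions on GRCm38 matched all 44 rows in start, end and strand, and are written 5′ to 3′ with the bases shared by both genes of a pair in capitals.
mt-Nd4l into mt-Nd4, chrMT:10127-10213, plus strand: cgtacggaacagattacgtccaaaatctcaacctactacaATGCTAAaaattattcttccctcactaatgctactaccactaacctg
Gm10222 into Gm28439, chr1:24612367-24612450, minus strand: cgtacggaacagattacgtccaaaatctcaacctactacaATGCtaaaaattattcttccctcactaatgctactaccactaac
mt-Atp8 into mt-Atp6, chrMT:7897-7999, plus strand: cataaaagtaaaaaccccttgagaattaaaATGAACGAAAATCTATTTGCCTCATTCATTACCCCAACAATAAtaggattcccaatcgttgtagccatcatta
mt-Nd1 into mt-Ti, chrMT:3666-3747, plus strand: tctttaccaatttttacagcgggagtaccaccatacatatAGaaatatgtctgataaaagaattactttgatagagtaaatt
mt-Nd2 into mt-Tw, chrMT:4910-4991, plus strand: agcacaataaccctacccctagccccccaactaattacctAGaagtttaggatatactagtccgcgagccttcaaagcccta
The overlap was 7 bases between mt-Nd4l and mt-Nd4, 4 bases between their nuclear copies, 43 bases between mt-Atp8 and mt-Atp6, and 2 bases in each of the other pairs shown.

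The nuclear copies lie in 1 block on the minus strand of chromosome 1, from position 24611535 to 24616197, a span of 4663 bases. The block matches positions 6381 to 11042 of MT, a span of 4662 bases, in the same gene order. Gm29216 is a copy of the last 492 bases of mt-Co1, and Gm28661, Gm10925, Gm28437, Gm28438, Gm10222 and Gm28439 are copies of mt-Co2, mt-Atp6, mt-Co3, mt-Nd3, mt-Nd4l and the first 876 bases of mt-Nd4. Over the 4149 bases of the 7 copies, 7 bases differed from MT, and 5 copies had no difference. The differences all lie at the starts of Gm29216 and Gm28438, shown here beside their MT partners with the differing bases in capitals.
mt-Co1, chrMT:6381-6440, plus strand: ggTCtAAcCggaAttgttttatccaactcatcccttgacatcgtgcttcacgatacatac
Gm29216, chr1:24616138-24616197, minus strand: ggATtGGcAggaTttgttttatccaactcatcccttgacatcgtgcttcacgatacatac
mt-Nd3, chrMT:9459-9518, plus strand: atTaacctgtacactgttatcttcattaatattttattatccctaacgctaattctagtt
Gm28438, chr1:24613060-24613119, minus strand: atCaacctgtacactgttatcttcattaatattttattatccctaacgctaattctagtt
Counted from the first base of the MT gene, with the MT base first, the changes were T1056A, C1057T, A1059G, A1060G, C1062A and A1066T in Gm29216 and T3C in Gm28438. Of all stretches of 75 bases, the length of a read, between 96.9% and 100% in each copy were identical in its MT partner.

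For 3 of the copies, reads were listed in equal amounts on MT and on chromosome 1. Aligned bases, computed as the deposited coverage (mean read depth per base) times the gene length, gave a ratio of Gm28437 to mt-Co3 of 0.999937 on average over 31 libraries, with a range of 0.999831 to 1.00001. The ratio was 0.999654 for Gm28661 to mt-Co2, and 0.999902 for Gm28438 to mt-Nd3, with a range of 0.998664 to 1.00176. Each of these 3 copies therefore carried the same value as its partner in both models and at all times, and a change in one row was a change in the other. Levels of the nuclear copies themselves cannot be told apart from those of mitochondrial transcripts. The counting program is not given. For mt-Co2, mt-Co3 and mt-Nd3, reads divided between both rows cannot be told apart from reads counted in full in each.

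For Gm10925, the copy of mt-Atp6, the partner row was listed at 0, and the equal amount stood in another row. The ratio of its aligned bases to those of mt-Atp8 was 0.99951 on average, with a range of 0.998317 to 0.999925. In other words, the row named mt-Atp8 held as many bases as a full copy of mt-Atp6, although mt-Atp8 is 204 bases long and the copy 678 bases. Gm29216 held 0.253 ± 0.0216 (SD, n = 31) of the bases of mt-Co1, of which it copies 492 of 1545 bases. Gm10222, which matches mt-Nd4l without a difference, was listed at 0 in all 31 libraries. Gm28439 was above 0 in all 31 libraries, although mt-Nd4, of which it copies 876 bases, was at 0. In mouse 1 of RM9 Control, Gm28439 held 0.0235% of the library's aligned bases, against 0.344% in the mt-Nd4l row. Identical sequence was thus not listed equally in every pair.

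**Figure D1:**
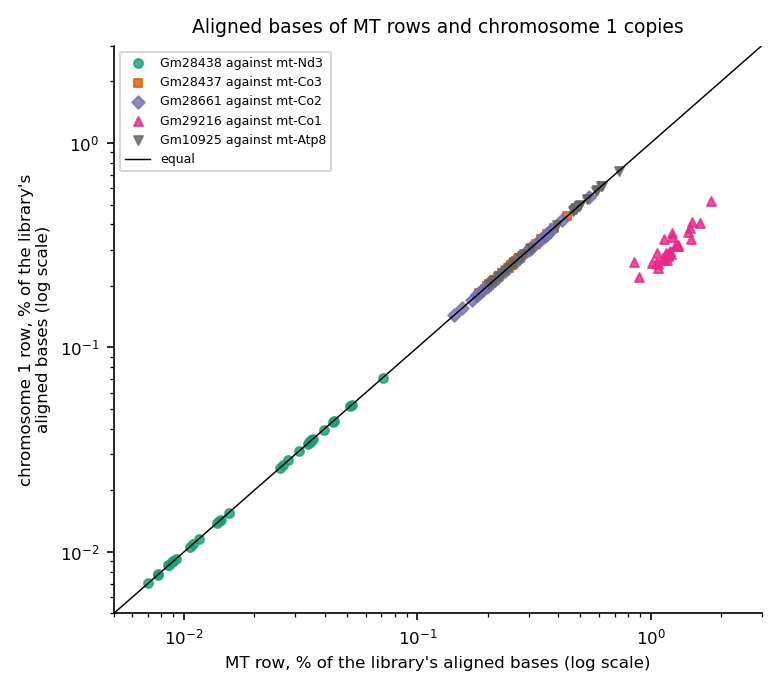
Aligned bases of 5 chromosome 1 rows (vertical axis) against an MT row (horizontal axis), both in percent of the library's aligned bases on log scales, with 1 point per library and a line of equality. The points of Gm28438, Gm28437, Gm28661 and, against mt-Atp8, Gm10925 lie on the line, and those of Gm29216 lie below mt-Co1.

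There were 5 members listed at 0 in every library. They were mt-Nd1 and mt-Nd2, core subunits of complex I (NADH dehydrogenase) encoded directly after the rRNAs, mt-Nd4, another complex I subunit, mt-Atp6, a subunit of ATP synthase (complex V), and Gm10222. Each of the 5 overlaps another listed gene on the same strand, by between 1 and 43 bases. Cells with a working respiratory chain express the 4 MT genes, so these zeros are a property of the tables, and nothing is said here about those transcripts. Of the other members, 26 were above 0 in all 31 libraries, among them 9 of 13 mRNAs, both rRNAs and 9 of 22 tRNAs.

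Of the rows that overlap these genes, mt-Nd4l, mt-Atp8 and Gm28439 were listed far above their read depth. TPM divides a gene's reads by its length and scales each library to 1000000, and FPKM is the same quantity without the fixed total. For mt-Nd4l, FPKM exceeded the value computed from coverage by a factor of 42.4 in all 31 libraries, and for mt-Atp8 by 4.74. For Gm28439, the copy of mt-Nd4, the factor was 219. These factors equal the gene's length divided by its overlap with its neighbour, 297 bases over 7, 204 over 43 and 876 over 4. The mt-Ts2 row, above 0 in 2 libraries, had a factor of 59 in 1 of them, its length of 59 bases over an overlap of 1 base with mt-Tl2, and of 1 in the other. For every other member above 0 the factor was 1. How the authors' program reached these values was not tested, and levels of mt-Nd4l, mt-Atp8 and Gm28439 are below also given from coverage.

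These 3 rows set most of the share of TPM that the members held. In RM9 Control the members held 57.1%, 53.9%, 57.9% and 54.1% of TPM in mice 1 to 4, and the 3 rows alone between 49.6% and 53.9%. In MC38 Control the members held 47.9%, 33.1%, 30.6% and 36.7%, and the 3 rows between 26.4% and 43.3%. All RM9 libraries lay above all MC38 libraries, and mouse 1 of MC38 Control stood apart from the other 3. With the 3 rows taken from coverage and TPM rescaled, the members held 13.6% ± 0.563 (SD, n = 4) in RM9 Control and 9.71% ± 1.65 (SD, n = 4) in MC38 Control. Coverage leaves the mt-Atp8 row high, since it divides the bases by 204, the length of mt-Atp8. Before rescaling, the row had 18694 TPM from coverage in mouse 1 of RM9 Control, and Gm10925, with equal bases, 5622 TPM. In the same mouse the mt-Nd4l row, divided by 297 bases, had 9320 TPM from coverage, and mt-Nd4, which overlaps it, was at 0. Whether the mt-Nd4l row holds reads of mt-Nd4 was not tested.

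Every other gene's TPM is scaled by what the 3 rows take. With them from coverage, the TPM of all other genes was multiplied by 1.96 ± 0.0816 (SD, n = 4) in RM9 Control and by 2.19 ± 0.066 (SD, n = 4) in RM9 RT 12 h. The factor was 1.45 ± 0.165 (SD, n = 4) in MC38 Control and 1.3 ± 0.0227 (SD, n = 4) in MC38 RT 12 h. The factor thus differed between models, and moved in opposite directions at 12 h. In RM9 at 12 h, 1163 of 14013 genes tested were lower than in controls with TPM as deposited and 6 with the 3 rows from coverage.

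Aligned bases do not depend on this scaling. By that measure the members held 5.06%, 5.21%, 5.03% and 4.61% of a library in RM9 Control, and 7.65%, 5.8%, 5.79% and 6.21% in RM9 RT 12 h. In MC38 they held 5.11%, 3.71%, 3.33% and 3.84% in Control, and 3.12%, 2.81%, 3% and 3.11% at RT 12 h. All RM9 libraries of RT 12 h lay above all RM9 controls, and all MC38 libraries of RT 12 h lay below all MC38 controls, also without mouse 1. At 3 h and 24 h the ranges overlapped those of the controls in both models, with 4.41% to 5.34% and 4.82% to 6.17% in RM9 and 2.63% to 3.65% and 2.7% to 3.37% in MC38. In bulk tissue, fewer cells of a type and less RNA per cell cannot be told apart.

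**Figure D2:**
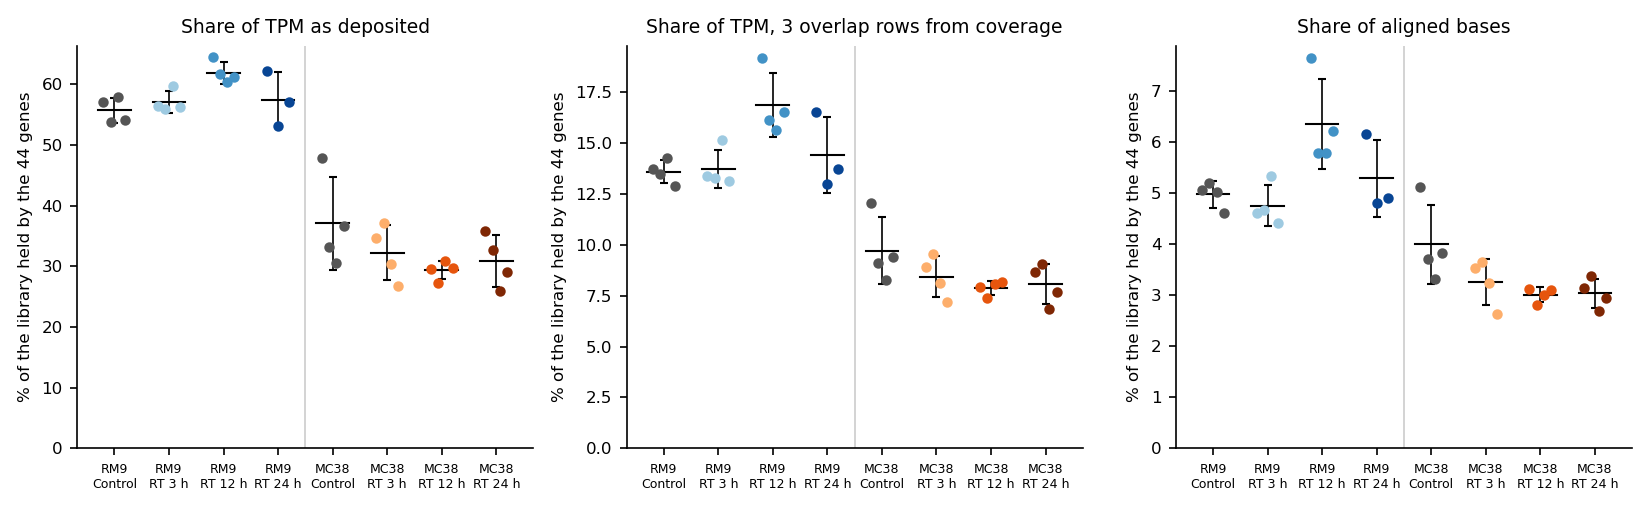
Percent of each library held by the 44 genes (vertical axes) in the 8 groups (horizontal axes), as TPM, as TPM with 3 rows taken from coverage, and as aligned bases, with 1 point per mouse and the mean ± SD of each group as bars. The share of TPM falls from over 50% to under 20% in RM9 once 3 rows are taken from coverage, while RM9 RT 12 h stays above its controls in all 3 panels.

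Levels per length depend on how reads were counted on MT and chromosome 1. The mt-Co2, mt-Co3 and mt-Nd3 rows and the end of mt-Co1 share their reads with a copy, and mt-Cytb, mt-Nd5, mt-Nd6 and the rRNAs have no copy in the block, so that their TPM as listed gives no order across these sets. With the reads of each copy added to its MT row, per length of the MT gene, mt-Co2 had 8256 ± 570 TPM and mt-Co1, the catalytic subunit of complex IV (cytochrome c oxidase), 8248 ± 484 TPM in RM9 controls (SD, n = 4 each), with overlapping ranges. They were followed by mt-Co3, with 5843 ± 379 TPM, and mt-Cytb, the cytochrome b of complex III, with 4602 ± 145 TPM, whose ranges did not overlap each other or those above. Both mt-Co2 and mt-Co3 are core subunits of complex IV. Among complex I subunits, mt-Nd3 stood at 1816 ± 229 TPM with its copy added, mt-Nd5 at 677 ± 61.3 TPM and mt-Nd6, the only protein gene on the other strand, at 51.7 ± 5.31 TPM (SD, n = 4 each). The rRNAs of the small and large ribosomal subunit, mt-Rnr1 and mt-Rnr2, had 160 ± 61.1 and 101 ± 55.1 TPM, with overlapping ranges. The libraries were made with a kit that selects poly(A) RNA, and the part of that step in the low rRNA values was not tested.

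In MC38 controls, with the copies added in the same way, mt-Co1 had 12394 ± 276 TPM, mt-Co3 8315 ± 583 TPM, mt-Co2 7742 ± 310 TPM and mt-Cytb 2448 ± 559 TPM (SD, n = 4 each). The ranges of mt-Co3 and mt-Co2 overlapped, and those of mt-Co1 and mt-Cytb lay apart. For mt-Nd3 the level was 1080 ± 296 TPM and for mt-Nd5 898 ± 75.7 TPM, with overlapping ranges, and for mt-Rnr1 it was 537 ± 126 TPM (SD, n = 4 each). Adding the copies counts all of their reads as mitochondrial, which the tables cannot show. It also takes reads as divided between the rows, and would count them more than once if each row held them in full. As listed, the means in RM9 controls were 6473 TPM for mt-Co1, 4602 TPM for mt-Cytb, 4129 TPM for mt-Co2 and 2922 TPM for mt-Co3. The order given for either model rests on that choice. All values below are of single rows.

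Of the 32 members tested between the controls of the 2 models, 9 were higher and 11 lower in MC38 (limma, Benjamini-Hochberg adjusted p under 0.05), against 64.7% of all 15358 genes higher and 10.7% lower. The median log2 fold change was -0.16 over the tested members and 0.63 over all genes. Without overlap of the groups, 8 members lay above and 11 below, against 50.9% and 9.09% of all genes. The lower calls include mt-Ts1 and mt-Te, and the rows without overlap include mt-Te, whose zeros can be missing estimates. The higher calls and the rows above include mt-Tv and mt-Th, each with at most 2.08 reads in any control. Both counts also hold copies beside partner rows with the same reads, so the rows are not independent. With the 3 rows from coverage the count by limma changed to 3 higher and 17 lower of 34 tested, with medians of -0.53 and 0.24. The share over all genes moves with the scaling too. With libraries scaled to the TPM of genes outside the members, 3 members were higher and 17 lower of 34. Of all 16517 genes, 6698 were then higher and 3923 lower. The tumor model cannot be told apart from the set of mice and libraries.

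The only complex III row, mt-Cytb, was lower in MC38. The TPM of mt-Cytb was 4701, 4628, 4689 and 4389.6 in RM9 Control and 3218, 2088, 1987 and 2499 in MC38 Control. Every MC38 library was below every RM9 library, and mouse 1 of MC38 was the nearest. The log2 fold change was -0.94 ± 0.12 (SE; limma adjusted p = 6.33e-08), and it was -1.37 with the 3 rows from coverage. Without mouse 1 of MC38 Control it was -1.08.

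The complex I rows mt-Nd3 and mt-Nd4l went the same way. The TPM of mt-Nd3 was 807, 1030.4, 814 and 982 in RM9 Control and 750.3, 487, 405 and 518 in MC38 Control, with no overlap. Its log2 fold change was -0.78 ± 0.17 (SE; limma adjusted p = 0.000172). For the mt-Nd4l row, in which reads of mt-Nd4 were not told apart, the log2 fold change was -0.89 ± 0.15 (SE; limma adjusted p = 7.08e-06) with TPM as deposited. It was -1.33 with values from coverage. In contrast, mt-Nd5 was called higher at 0.41 ± 0.16 (SE; limma adjusted p = 0.0212), but its sign turned to -0.03 with the 3 rows from coverage, and it did not pass without mouse 1 of MC38 Control (limma adjusted p = 0.0561). The mt-Nd6 row did not pass (limma adjusted p = 0.726).

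Complex IV rows depended on the scaling. TPM of mt-Co1 was 6413, 6587, 6936 and 5955 in RM9 Control and 9819, 10321, 9925 and 9845 in MC38 Control, again with no overlap. The log2 fold change of mt-Co1 was 0.63 ± 0.08 (SE; limma adjusted p = 1.99e-07) as deposited, 0.19 with the 3 rows from coverage (limma adjusted p = 0.13) and -0.05 with median-ratio scaling. That of mt-Co3 was 0.51 ± 0.09 (SE; limma adjusted p = 6.75e-06) as deposited, 0.07 with the 3 rows from coverage and -0.16 with median-ratio scaling. For mt-Co2 it was -0.09 and did not pass as deposited. The mt-Atp8 row, of complex V, was lower in MC38 at -0.23 ± 0.08 (SE; limma adjusted p = 0.00807).

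The rRNAs were higher in MC38. TPM of mt-Rnr1 was 141, 247, 105 and 145 in RM9 Control and 368, 668, 580.4 and 532 in MC38 Control. The lowest MC38 library was above the highest RM9 library. Its log2 fold change was 1.78 ± 0.24 (SE; limma adjusted p = 1.76e-07), and 1.35 with the 3 rows from coverage. For mt-Rnr2 it was 1.07 ± 0.33 (SE; limma adjusted p = 0.0048) as deposited, and the call was lost with the 3 rows from coverage (limma adjusted p = 0.105).

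Shares within the members give the same comparison without any scaling to other genes. Of the aligned bases of all 44 genes, mt-Cytb held 12.3% to 13.2% in RM9 Control and 5.25% to 7.73% in MC38 Control. The mt-Nd4l row held 5.91% to 6.78% in RM9 and 2.57% to 4.34% in MC38. In the other direction, mt-Co1 held 23.2% to 25.5% in RM9 and 31.8% to 35.7% in MC38, and mt-Co3 5.24% to 5.84% and 7.03% to 7.52%. The mt-Rnr1 row held 0.239% to 0.549% and 0.737% to 1.4%. None of these 5 pairs of ranges overlapped, so the shares of these listed rows differed between the models. With 4 mRNAs at 0 in every library and reads shared with the copies, they do not give the make-up of mitochondrial RNA. A fall in the share of some rows also raises that of others. Complex IV rows and their copies together held 55.4% ± 1.11 (SD, n = 4) of the members' bases in RM9 Control and 68.6% ± 2.1 (SD, n = 4) in MC38 Control.

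**Figure D3:**
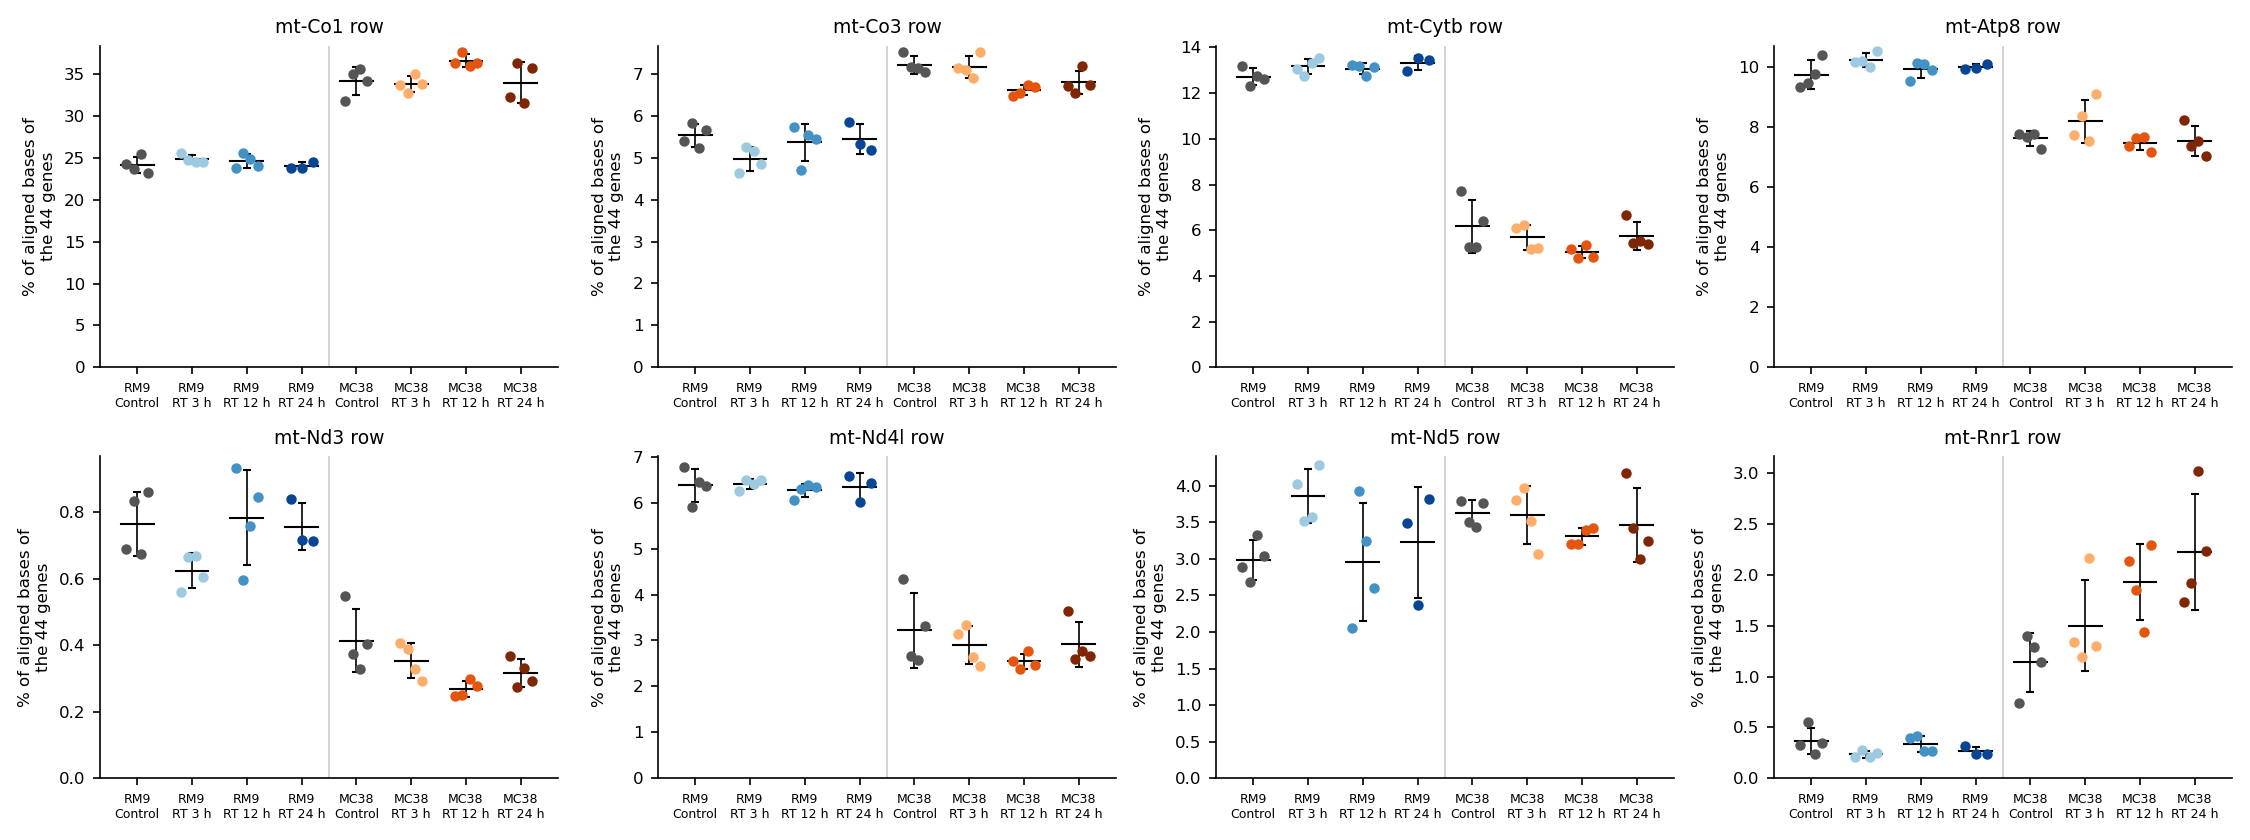
Percent of the aligned bases of all 44 genes (vertical axes) held by 8 rows in the 8 groups (horizontal axes), with 1 point per mouse and the mean ± SD of each group as bars. The mt-Cytb, mt-Nd4l and mt-Atp8 rows hold a larger share in every RM9 group and mt-Co1, mt-Co3 and mt-Rnr1 in every MC38 group.

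Skeletal muscle transcripts were high in some libraries, and muscle is rich in mitochondria. All 12 muscle genes listed, among them Acta1, Ckm and Myh4, had a mean TPM of at least 0.5 in both models. Their summed TPM ranged from 14.2 to 2907 in RM9 and from 22.8 to 14776 in MC38, where mouse 1 of Control was the highest and the next was 4648. That mouse also had the highest share of members among the MC38 libraries, and the mice with the highest sums in MC38 RT 3 h and RT 24 h, 3906 and 4648, had the highest shares of TPM of their groups, 37.1% and 35.8%. Mouse 2 of MC38 RT 12 h had the highest sum of its group, 612, and the lowest share. By aligned bases, mouse 2 of MC38 RT 24 h had the highest share of its group, with a muscle sum of 29.7. For RM9 RT 24 h, the highest sum and the highest share of TPM fell in the same mouse. The highest shares of TPM in RM9 Control and RT 3 h were those of mouse 3, with sums of 313 and 15.6. In RM9 RT 12 h, mouse 3 had the highest sum of its group, 1176, and the lowest share of TPM, 60.3%. The brown adipocyte gene Ucp1 was at 0 in all libraries. The part of muscle in these shares was not tested.

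In RM9, no member passed the test after RT at any time, with 29 tested. By limma, 7 members had an unadjusted p under 0.05 at 3 h, 3 at 12 h and 1 at 24 h. Of all 14013 genes, 0.2% were higher and 0.0285% lower at 3 h, 0.0714% higher and 8.3% lower at 12 h (8.37% either way), and 0% either way at 24 h. Median-ratio scaling and TPM from coverage also gave 0 member calls at each time. With a filter of a mean TPM of at least 5, the count at 12 h was 1.

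The 12 h values nevertheless left the range of the controls in 5 rows, mt-Co1, mt-Cytb, mt-Atp8, mt-Nd4l and Gm10925, all higher, against 0.243% of all genes, and 0 were lower, against 19.4% of all genes. Gm10925 and mt-Atp8 held equal bases, so that change is counted in both rows. TPM of mt-Cytb was 5798, 5129.6, 4882 and 5231 in RM9 RT 12 h, against a highest control of 4701. The mean was 4602 ± 145 TPM in Control and 5260.03 ± 388 TPM at 12 h (SD, n = 4), and the log2 fold change, which did not pass, was 0.19 ± 0.07 (SE; limma adjusted p = 0.0947). TPM of mt-Co1 was 7713, 7379, 7060.2 and 7097, against a highest control of 6936. Its log2 fold change was 0.18 ± 0.07 (SE; limma adjusted p = 0.117).

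The members and all genes had medians of opposite sign. The median log2 fold change at 12 h was 0.10 over the 29 tested members and -0.19 over all genes, and with the 3 rows from coverage it was 0.26 and -0.05. Within the members the shares did not move with the total. The mt-Cytb row held 12.3% to 13.2% of the members' bases in Control and 12.7% to 13.2% at 12 h, and mt-Co1 held 23.2% to 25.5% and 23.8% to 25.6%.

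At 3 h in RM9, mt-Nd5 left the range of the controls. TPM was 899, 775.0, 844 and 926 at 3 h and 645, 634, 768 and 662 in Control. Every value was higher than all controls (9.88% of all genes were higher without overlap), and the log2 fold change was 0.35 ± 0.16 (SE; limma adjusted p = 0.228). The 4 tRNA rows mt-Tw, mt-Ts1, mt-Td and mt-Tg lay below all controls, against 2.87% of all genes. The mt-Te row was listed at 0 in 3 of the 4 libraries and is not counted. For mt-Co1, the last 492 bases, with the reads of Gm29216 added, were 1.62 ± 0.156 (SD, n = 4) times as deep as the first 1053 bases in RM9 Control and 1.33 ± 0.0895 (SD, n = 4) times at 3 h, with ranges of 1.42 to 1.79 and 1.25 to 1.44 that overlapped. That ratio ranged from 1.25 to 1.8 over RM9 and from 1.31 to 1.92 over MC38, and its part in the values of mt-Nd5 and the tRNA rows was not tested. It takes reads as divided between mt-Co1 and Gm29216.

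In RM9 at 24 h, with 3 mice, mt-Cytb had 5027, 4912 and 4816 TPM, all above the controls, as 2.01% of all genes were (limma adjusted p = 0.999). The tRNA row mt-Td lay below all controls, as 2.24% of all genes did. The rows mt-Nd3, mt-Co2 and mt-Co3 had means of 921 ± 129, 3976 ± 282 and 2946 ± 324 TPM (SD, n = 3), with ranges that overlapped the controls.

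**Figure D4:**
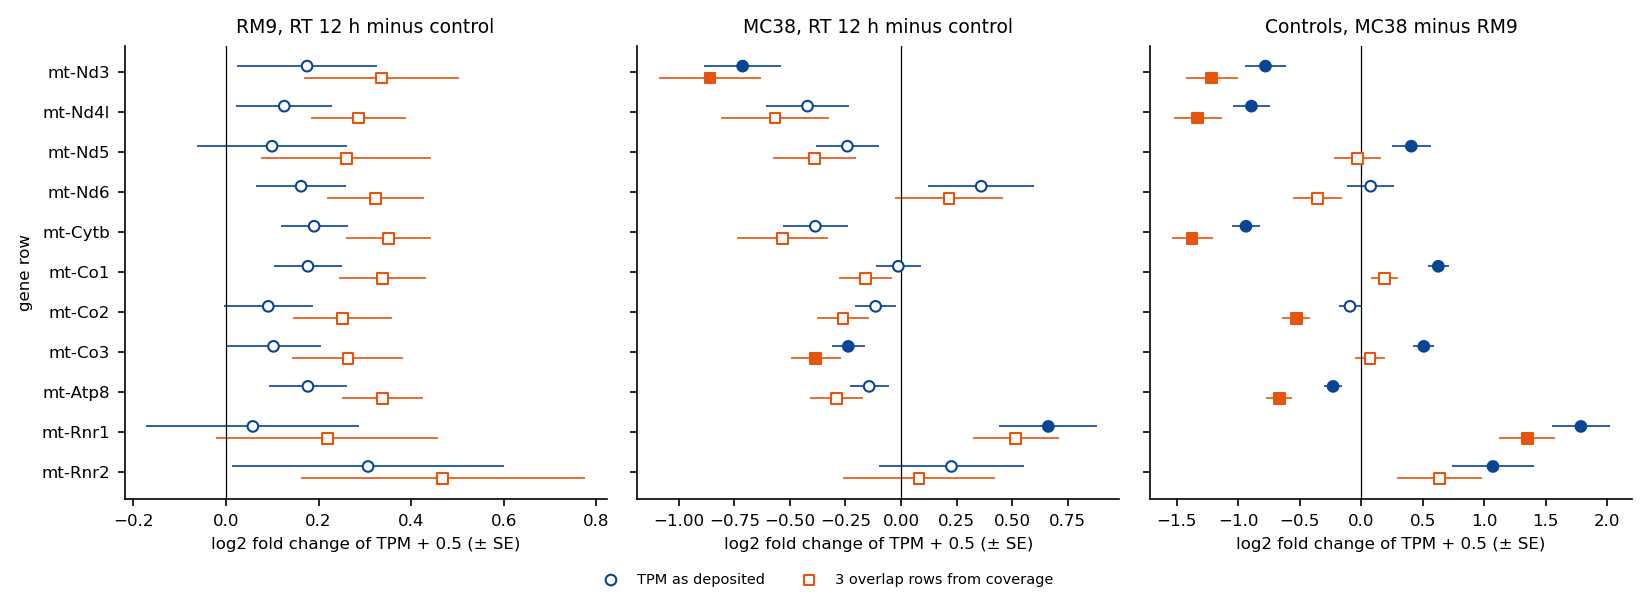
Log2 fold changes (horizontal axes, ± SE) of 11 MT rows (vertical axis) for RT 12 h in RM9, RT 12 h in MC38 and MC38 against RM9 controls, with TPM as deposited (circles) and with 3 rows taken from coverage (squares), filled where the limma adjusted p was under 0.05. The mt-Nd3 and mt-Co3 rows are filled and below 0 in MC38 at 12 h, no row is filled in RM9, and mt-Co1, mt-Co3, mt-Nd5 and mt-Rnr2 are filled in the controls only as deposited.

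In MC38 after RT, some mRNA rows were called lower and 1 rRNA row higher. By limma, 0 of 33 members passed at 3 h, also at an unadjusted p under 0.05, when 0.051% of all genes were higher and 0.0127% lower (0.0637% either way). At 3 h mt-Co1 and Gm29216 lay below all controls, against 0.975% of all genes, and 0 members lay above, against 7.2%. The values of mt-Co1 were 9346, 9217, 9544 and 8078 TPM against 9819 or more. At 12 h, 1 of 33 members was higher and 4 were lower, against 28.5% and 2.59% of all 15698 genes. At 24 h, 2 were higher and 2 lower, against 13.2% and 0.548% (13.8% either way). The median over the tested members was -0.14 at 3 h, -0.11 at 12 h and -0.10 at 24 h, and over all genes 0.19, 0.33 and 0.22.

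At 12 h the 4 lower rows were mt-Nd3 and mt-Co3 with their copies Gm28438 and Gm28437, which hold the same reads. TPM of mt-Nd3 was 750.3, 487, 405 and 518 in Control and 300.04, 289.7, 356 and 343 at 12 h. All 4 mice at 12 h were below all controls. The log2 fold change was -0.71 ± 0.17 (SE; limma adjusted p = 0.0142), -0.86 with the 3 rows from coverage (limma adjusted p = 0.019) and -0.54 without mouse 1 of Control (limma adjusted p = 0.0349).

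For mt-Co3, TPM was 4568, 4155, 3911 and 3997 in Control and 3474, 3381, 3549 and 3684 at 12 h. These groups did not overlap either. The log2 fold change was -0.24 ± 0.08 (SE; limma adjusted p = 0.0306), and without mouse 1 of Control it was -0.19 and did not pass (limma adjusted p = 0.0879). In all, 7 rows lay below all controls at 12 h, against 1.97% of all genes, the other 3 being mt-Cytb, mt-Atp8 and Gm10925. Copies that hold the bases of another row are counted beside it. TPM of mt-Cytb was 1911, 1698, 1936 and 1823 at 12 h and did not pass (log2 fold change -0.39 ± 0.15, SE; limma adjusted p = 0.0549).

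The rRNA row mt-Rnr1 was called higher at 12 h and 24 h, and both calls depended on the scaling or on single mice. TPM was 368, 668, 580.4 and 532 in Control, 941, 783, 622 and 1039.9 at 12 h and 728, 925, 1139 and 956 at 24 h. The 24 h group lay above all controls, and the 12 h group overlapped mouse 2 of Control. The log2 fold change was 0.66 ± 0.22 (SE; limma adjusted p = 0.0359) at 12 h and 0.82 ± 0.22 (SE; limma adjusted p = 0.0235) at 24 h. Without mouse 1 of Control it was 0.49 and 0.65, and neither passed (limma adjusted p = 0.13 and 0.0763). With the 3 rows from coverage it was 0.52 at 12 h, which did not pass (limma adjusted p = 0.0623), and 0.70 at 24 h, which did (limma adjusted p = 0.0225). With median-ratio scaling it was 0.31 and 0.55 and did not pass at either time. Mouse 3 of RT 24 h had the highest value, and the last 492 bases of its mt-Co1 were 1.92 times as deep as the first 1053, against 1.31 to 1.46 in the other 15 MC38 libraries. Without that mouse the 24 h change was 0.72 and did not pass (limma adjusted p = 0.0592). The part of this depth ratio in the value was not tested. The large-subunit rRNA, mt-Rnr2, did not pass, with 194 ± 21.8 TPM in Control and 216 ± 27.3 TPM (SD, n = 4) at 24 h.

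At 24 h in MC38, 3 rows, mt-Co3, Gm28437 and mt-Th, lay below all controls, against 0.898% of all genes. The highest value of mt-Th over all libraries was that of 2.08 reads. The mt-Co3 row was lower at -0.24 ± 0.08 (SE; limma adjusted p = 0.0451). This call was lost without mouse 1 of Control (limma adjusted p = 0.114) or mouse 3 of RT 24 h (limma adjusted p = 0.0809). The mt-Nd3 row was at -0.52 ± 0.17 and did not pass (SE; limma adjusted p = 0.0552). The tRNA row mt-Tf, which codes for the phenylalanine tRNA just before mt-Rnr1, was called higher at 0.98 ± 0.29 (SE; limma adjusted p = 0.0367), with 0.37 ± 0.197 TPM in Control and 1.23 ± 0.473 TPM (SD, n = 4) at 24 h. Its highest value over all libraries was that of 2.04 reads, and the call was lost without mouse 1 of Control (limma adjusted p = 0.113) or mouse 3 of RT 24 h (limma adjusted p = 0.0879). The complex I row mt-Nd5 and the complex V row mt-Atp8 had log2 fold changes of -0.23 and -0.17 at 24 h and did not pass.

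Within the members, the MC38 shares moved with RT for some rows. The mt-Co3 row held 7.03% to 7.52% of the members' bases in Control and 6.47% to 6.73% at 12 h, and mt-Nd3 0.328% to 0.548% and 0.248% to 0.299%. The mt-Rnr1 row held 0.737% to 1.4% in Control, 1.44% to 2.3% at 12 h and 1.74% to 3.02% at 24 h. For each of these rows the 12 h range lay apart from that of the controls. The mt-Co1 row held 31.8% to 35.7% in Control and 36% to 37.7% at 12 h.

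The RT effects of the 2 models were compared directly by an interaction term in a fit of all 31 libraries. At 12 h the effect was lower in MC38 than in RM9 for 9 of 32 members and higher for 0, against 0.469% and 44.9% of all 15358 genes (45.4% either way). The 9 rows were mt-Nd3, mt-Nd4l, mt-Cytb, mt-Co3 and mt-Atp8 and the copies Gm28438, Gm28437, Gm10925 and Gm28439. Gm28438, Gm28437 and Gm10925 held equal bases to mt-Nd3, mt-Co3 and mt-Atp8, so these changes are each counted in both rows. The difference was -0.89 ± 0.24 (log2, SE; limma adjusted p = 0.00684) for mt-Nd3 and -0.58 ± 0.17 (log2, SE; limma adjusted p = 0.00957) for mt-Cytb. The median difference was -0.16 over the tested members and 0.50 over all genes. With the 3 rows from coverage 12 members were lower and 0 higher, with medians of -0.46 and 0.23, and without mouse 1 of MC38 Control 4 were lower with TPM as deposited. Scaled to the TPM of genes outside the members, 10 of 34 were lower and 0 higher, against 137 and 588 of all 16517 genes.

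At 3 h and 24 h, 0 members passed the interaction test in limma, with 5 and 6 at an unadjusted p under 0.05. Of all genes, 0% passed at 3 h and 1.81% at 24 h.

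The rows of the transfer RNAs, which are 59 to 75 bases long, were uneven. Of the 22, 9 were above 0 in all libraries, and 5 had a median of 18.1 reads or more per library. The highest mean TPM over all libraries was that of mt-Ts1 (serine), with 797 TPM, followed by mt-Tl1 (leucine), with 50.7 TPM, and mt-Te (glutamate), with 40.3 TPM. Both mt-Ts1, next to the end of mt-Co1, and mt-Te, between mt-Nd6 and mt-Cytb, lie on the minus strand. Whether reads were counted by strand is not given in the sources used here, so that reads of the opposite strand at these places cannot be told apart.

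Both rows switched between 0 and a high value. In mt-Ts1, TPM was 819, 936, 732 and 767 in RM9 Control and 0, 1154, 0 and 1109 in MC38 Control. Of the other 23 libraries, MC38 RT 12 h mouse 2 was also at 0, and the lowest value above 0 was 523 TPM. No library lay between. In mt-Te, TPM was 114, 127, 97.0 and 101 in RM9 Control and 0 in all 4 MC38 controls, and 17 of 31 libraries were at 0, with a lowest value above 0 of 56.4 TPM. The limma calls of mt-Ts1 and mt-Te between the controls rest on these zeros, which can be missing estimates, and no fold change is given for them.

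**Figure D5:**
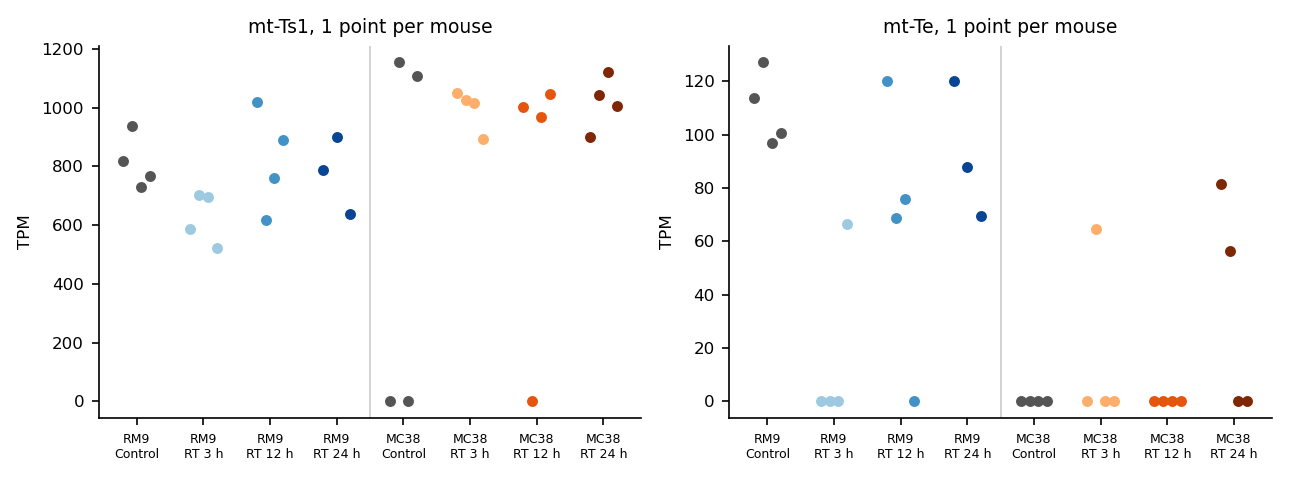
TPM of mt-Ts1 and mt-Te (vertical axes) in the 8 groups (horizontal axes), with 1 point per mouse. In mt-Ts1, 3 MC38 libraries are at 0 and the other 28 lie between 523 and 1154 TPM, and in mt-Te 17 libraries are at 0.

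The mt-Tl1 row was above 0 throughout, with 61.1 ± 10.6 TPM in RM9 Control and 39.3 ± 5.02 TPM (SD, n = 4) in MC38 Control, a log2 fold change of -0.62 ± 0.24 (SE; limma adjusted p = 0.0238) that was lost without mouse 1 of MC38 Control. It gave no call after RT. Among the other tRNA rows, mt-Ta was above 0 in 1 library and mt-Ts2 in 2.

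The nuclear genes that copy, transcribe and process mitochondrial DNA were listed for comparison, with 40 of 41 found and 39 tested in RM9 and 38 in MC38. In RM9, 0 passed at 3 h and 24 h, and 5 of 39 were lower at 12 h, against 8.3% of all genes. The 3 with the smallest p were Lrpprc, which stabilises mitochondrial mRNAs, Endog, a mitochondrial nuclease, and Fastkd3, a mitochondrial RNA-binding protein. Lrpprc fell from 17.5 ± 1.67 to 12.5 ± 0.766 TPM (SD, n = 4), with a log2 fold change of -0.46 ± 0.11 (SE; limma adjusted p = 0.0304). With the 3 mitochondrial rows from coverage it was -0.31 and did not pass (limma adjusted p = 0.149), and 0 of the 39 genes passed. Endog and Fastkd3 were at -0.51 and -0.40 at 12 h.

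In MC38, 10 of 38 genes were higher and 0 lower at 12 h, against 28.5% and 2.59% of all genes. At 24 h 4 were higher and 0 lower, against 13.2% and 0.548%, with a list median of 0.28 and 0.22 beside 0.33 and 0.22 over all genes. Pnpt1, an RNA-degrading enzyme of mitochondria, rose from 71.9 ± 19.3 to 108 ± 2.07 TPM at 12 h and 129.96 ± 11.6 TPM at 24 h (SD, n = 4). Its log2 fold change at 24 h was 0.89 ± 0.16 (SE; limma adjusted p = 0.0029), and 0.77 with the 3 rows from coverage. Ppargc1b, a coactivator of genes for mitochondria, rose from 1.87 ± 0.662 to 4.05 ± 0.561 TPM (SD, n = 4) at 12 h, and Lrpprc from 45.1 ± 10.9 to 67.1 ± 2.71 TPM (SD, n = 4). With median-ratio scaling the list had 2 higher and 3 lower at 12 h and 4 higher and 4 lower at 24 h, so its one-sided direction did not hold under that scaling.

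Libraries held 21.4 to 29.4 M reads of 75 bases, and no pair of the 31 shared more than 0.00913% of its TPM values over 10958 expressed genes. Markers of other cells also moved with the groups. Summed over 8 macrophage genes, TPM was 381 to 597 in RM9 Control and 189 to 370.2 at RT 12 h, and 821 to 1311 in MC38 Control and 299 to 709.9 at RT 12 h. Those of RT 12 h lay below all controls in both models. All sums in this paragraph are of TPM as deposited. The factor that the 3 overlap rows put on other genes was 1.88 to 2.04 in RM9 Control and 2.13 to 2.28 at RT 12 h. The RM9 gap, from 370.2 to 381 TPM, is small beside it, so the lack of overlap there holds only as deposited. T cell genes summed to 8.84 to 15.7 TPM in RM9 Control and to 2.76 to 8.18 TPM over the 3 RT groups, with no overlap. In MC38 they summed to 28.6 to 39.9 TPM in Control, 16.4 to 28.8 TPM at 12 h, which overlapped, and 14.8 to 25.8 TPM at 24 h, which did not. Erythroid genes summed to 83.2 to 215 TPM in MC38 Control and to 52.0 to 76.5 TPM at 12 h, below all controls, and to up to 72.4 TPM in RM9. Neutrophil genes summed to 4.01 to 31.6 TPM in RM9 and 10.4 to 38 TPM in MC38. Epithelial genes summed to 669 to 1526 TPM in RM9 and 0.553 to 1.56 TPM in MC38, prostate genes to 1.21 to 4.07 and 1.49 to 4.58, colon genes to 7.90 to 18.8 and 0.711 to 3.33, and brown adipocyte genes to 0.0348 to 0.29 and 0.743 to 3.15. Their part in the values of the members was not tested.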

How the data were processed

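Tumor RNA of 31 mice was sequenced by the authors as single reads of 75 bases after poly(A) selection. The authors deposited 1 table per library with TPM, FPKM and coverage for each gene. TPM was scaled by the authors to 1000000 per library, FPKM was deposited beside it at a constant ratio, and coverage was deposited as unscaled mean read depth. The aligner and counting program are not given in the sources used here. The submitters' processing notes name bcl2fastq 2.17 and the build GRCm39, while the positions of all 44 members in the tables match GENCODE M21 on GRCm38, which was used here. A library's total reads were computed from coverage over FPKM. The tables hold no read counts, so no counting interval is given.

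Groups came from the sample titles. The test was limma 3.58.1 under R 4.3.3 (lmFit, eBayes with trend), run on log2(TPM + 0.5) for every gene whose mean TPM reached 0.5, with 15 RM9 libraries, 16 MC38 libraries or all 31 in a fit, and Benjamini-Hochberg adjustment over all genes tested per comparison at 0.05. The fold change scale understates changes of low genes. Exact permutation tests of single rows were planned and are not reported, since rows picked for groups that do not overlap give the smallest p by construction. The other steps ran in Python 3.11.15 (scipy 1.17.1, pandas 2.3.3, numpy 2.4.6, with matplotlib 3.10.9 for plots), and the fits were tested on simulated data.

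The members, gene lists (mitochondrial DNA maintenance and RNA processing, muscle, brown adipocyte, erythroid, macrophage, neutrophil, T cell, epithelium, prostate, colon) and tests were chosen with earlier results of these data known. Named were all protein-coding, rRNA and copy rows, the 3 tRNAs of highest mean TPM and any passing after RT, and the 3 nuclear list genes of smallest p in each model. Alternatives were other pseudocounts, filters, scalings, a replicate block, eBayes without trend, summed copies, fits of 2 groups and leaving out libraries. Taking mt-Nd4l, mt-Atp8 and Gm28439 from coverage, and adding copies to MT rows for levels, were chosen after seeing the data.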

Additional observations from a re-analysis of the deposited data

Results flagged for a closer look

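Single mice stood far from the other 3 of their group in 8 of 159 groups of values examined, by Dixon's test at the 95% level. Chance flags about 1 in 20 groups. In RM9 Control, mouse 2 was high for mt-Co3, at 3204 TPM against 2808 to 2863, and for its copy Gm28437, at 3207 TPM against 2811 to 2867. In RM9 RT 3 h, mouse 3 held the highest share of TPM in the members, 59.7% against 55.97% to 56.5%, and mouse 4 was the only one with mt-Te above 0, at 66.7 TPM. In MC38 RT 3 h, mouse 2 was the only one with mt-Te above 0, at 64.5 TPM. In MC38 RT 12 h, mouse 2 was low for Gm28439, at 24063 TPM against 28701 to 29656, and was listed at 0 for mt-Ts1 against 968 to 1046 TPM. In the same group, mouse 4 was high for mt-Nd6, the minus-strand complex I subunit, at 105 TPM against 58.7 to 62.6. No cause was tested.

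The RT effect at 12 h differed between MC38 and RM9 in 9 rows by the interaction term of the limma fit. The difference (log2, MC38 minus RM9) was -0.89 for mt-Nd3 and for its copy Gm28438, -0.58 for mt-Cytb, -0.55 for mt-Nd4l, -0.69 for Gm28439, -0.34 for mt-Co3 and for its copy Gm28437, and -0.32 for mt-Atp8 and for Gm10925, which held the same bases. The adjusted p ranged from 0.00681 for Gm28438 to 0.0475 for Gm28439.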

How the results depend on the processing

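Pseudocounts of 0.1 and 1 changed no call. In RM9, 0 members passed at every time under every alternative run, except 1 higher at 12 h with a filter of a mean TPM of at least 5. In MC38 at 12 h, the 1 higher became 0 with median-ratio scaling, scaling to nuclear TPM, with the 3 overlap rows from coverage (alone or with median-ratio scaling), without a filter and with only the 2 groups fitted. The 4 lower became 8 with median-ratio scaling (either way), 0 without a filter, and 2 without trend, with copies summed or with only 2 groups. In MC38 at 24 h, the 2 higher became 0 with median-ratio scaling (either way), without a filter or with only 2 groups, and 1 with a mean TPM of at least 5. The 2 lower became 0 without a filter, without trend or with only 2 groups, 4 with a mean TPM of at least 5, and 1 with copies summed. Between controls, the 9 higher became 2 with median-ratio scaling (either way), 3 with nuclear TPM or the overlap rows from coverage, and 4 with mt-Nd4l alone from coverage, and the 11 lower became 18 with median-ratio scaling (either way), 17 with nuclear TPM or the overlap rows from coverage, and 7 without a filter. The 9 lower of the 12 h interaction became 3 without a filter. The causes were not tested, other than that a filter changes the genes adjusted over.

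Signs turned between controls with median-ratio scaling, without and with the overlap rows from coverage, to -0.046 and -0.045 for mt-Co1, -0.16 and -0.16 for mt-Co3 and Gm28437, -0.26 and -0.26 for mt-Nd5, and -0.22 and -0.22 for Gm29216 (log2). With nuclear TPM they turned to -0.093 for mt-Nd5 and -0.052 for Gm29216, and with the overlap rows from coverage to -0.030 for mt-Nd5.

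With a replicate block, MC38 at 24 h had 1 higher and the control contrast 7 lower. The numbers did not pair the mice, since same-numbered mice had a median correlation of -0.061 in RM9 and -0.073 in MC38, and 5 of 21 and 7 of 24 pairs exceeded 0.1.

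The share of TPM, in the order Control, 3 h, 12 h and 24 h, became 30.01%, 32.5%, 36.4% and 32.2% in RM9 and 21.2%, 18.7%, 17.1% and 17.3% in MC38 with mt-Nd4l from coverage. With the 3 rows from coverage it became 13.6%, 13.7%, 16.9% and 14.4%, and 9.71%, 8.43%, 7.89% and 8.05%. With MT genes only it was 49.2%, 49.1%, 54.1% and 50.3% in RM9 and 27.2%, 24.6% and 26.2% after RT in MC38, and the share of aligned bases was 3.49%, 3.39%, 4.48% and 3.73%, and 2.81%, 2.29%, 2.13% and 2.14%.

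Leaving out 1 library at a time gave 0 to 1 higher and 2 to 6 lower in MC38 at 12 h, 0 to 2 higher and 0 to 4 lower at 24 h, 8 to 10 higher and 9 to 12 lower between controls, and 4 to 9 lower in the 12 h interaction and 0 to 1 higher in that at 24 h. In MC38 at 12 h the 1 higher was lost without mouse 1 or 4 of Control or mouse 1, 2 or 4 of RT 12 h, and 2 lower were left without mouse 1 or 4 of Control or any mouse of RT 12 h. At 24 h the higher calls were lost without mouse 1 of Control or mouse 2 or 3 of RT 24 h, and the lower without mouse 1, 2 or 4 of Control or mouse 3 or 4 of RT 24 h. The higher count at 24 h was 1 without mouse 4 of Control or mouse 4 of RT 24 h, and the lower count 4 without mouse 3 of Control. The 12 h interaction had 4 without mouse 1 of MC38 Control and 5 without mouse 1 of RM9 RT 12 h or mouse 2 of MC38 RT 12 h, and that at 24 h had 1 higher without mouse 3 of RM9 Control, mouse 2 or 3 of MC38 Control or mouse 1 of MC38 RT 24 h. Of the 22 tRNA rows, 17 had a median of under 18.1 reads, among them mt-Te, with a median of 0 and a highest value of 298.8.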
